A study of Mus musculus with 27 samples.

Results

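Cortex carrying a conditional deletion of Bcl11a was compared with control cortex at embryonic day (E) 13.5, while cortical progenitors are still dividing and the deep-layer neurons are being made. Of the 27 cortex samples in the study, 6 make this comparison, chosen by their labels: 3 control and 3 Bcl11a-CKO libraries of E13.5 cortex. All animals were of strain C57BL/6, and total RNA was extracted from dissected cortex that had been frozen on dry ice. The control genotype is given as wildtype, with no Cre and no floxed allele. The Bcl11a-CKO genotype is Emx1-Cre with Bcl11aFlox/Flox, so that any effect of Cre itself cannot be told apart from that of the deletion. Emx1-Cre acts in progenitors of the dorsal telencephalon and their descendants, and leaves Bcl11a intact in cells that enter the cortex from elsewhere. Each group is described as 3 cortical samples, without naming the animals. Each p-value thus reflects how far libraries within a group differ, pooled over all embryonic groups, and part of that may be technical. Set beside the 6 libraries compared are the 6 control and Bcl11a-CKO libraries of E15.5 cortex, with the same genotypes. The 3 Bcl11a/b-DCKO libraries of E13.5 are set beside them too, whose genotype is Emx1-Cre with both Bcl11aFlox/Flox and Bcl11bFlox/Flox.

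Bcl11a (Ctip1) encodes a zinc-finger transcription factor that binds DNA and recruits chromatin-modifying complexes, mostly as a repressor. In the developing cortex it is present in progenitors and in postmitotic projection neurons, where it is known for roles in neuron migration, in the choice between deep-layer fates and in the formation of sensory areas. Cortical radial glia divide under Notch signalling, give rise to Eomes-positive intermediate progenitors, and these produce glutamatergic neurons that migrate outward to form the layers.

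The 6 libraries held 5022955 to 7220708 read counts, with a count for 17332 to 18008 of the 34745 genes in the table. Levels are given in CPM, the counts scaled to a common library size, which correct for library size but not for gene length, so they are compared between libraries and not between genes. The tissue carried the markers of dorsal telencephalon: Emx1 lay at 171 to 192 CPM in controls and 131 to 169 in Bcl11a-CKO, and Tbr1, of early cortical neurons, at 308 to 418 and 326 to 460. Of the choroid plexus markers, Ttr and Kl had 0 counts in all 6 libraries and Folr1 had 2 counts, in control 2. Of the hem genes, Wnt3a had 0 counts and Lmx1a had 6, 0 and 4 in controls and 3, 0 and 2 in Bcl11a-CKO. Prox1, of the hippocampus and cortical hem list, stood at 7.99, 7.55 and 7.56 CPM and at 2.45, 5.02 and 2.56. It did not pass the test (edgeR adjusted p = 0.0595), nor did any of the 4 tested genes of that list. Their summed level was 97.3 to 131 CPM in controls and 67.8 to 204 in Bcl11a-CKO. Bcl11a-CKO 1 stood apart: on the first principal component of all 16 embryonic units, which held 58.3% of the variance and had the E15.5 units on its positive side, it lay at -20.0, against -60.6 to -38.7 for the other E13.5 units. Library 1 of each E13.5 group, Bcl11a-CKO 1 included, has a title ending that differs from that of libraries 2 and 3, and what the ending marks is not given. With that ending as a term in the model 474 genes were called at E13.5, and all 92 of the named genes that had been called kept their call. Control 1 and Bcl11a/b-DCKO 1 share the ending but lay at -48.6 and -50.8, so the term does not remove what sets Bcl11a-CKO 1 apart. With Bcl11a-CKO 1 left out, 61 of the 92 kept their call and 31 lost it. Xist passed 1000 CPM in 1 of the 3 libraries of each group.

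Bcl11a RNA was lower in the mutant but not lost. The gene (ENSMUSG00000000861, chr11:24078056-24174123, build mm10) stood at 428, 525 and 509 CPM in controls 1 to 3, and at 372, 325 and 261 CPM in Bcl11a-CKO 1 to 3. Every mutant library lay below every control. The fitted log2 fold change was -0.61 ± 0.11 (SE, n = 3 against 3, edgeR quasi-likelihood test with Benjamini-Hochberg adjustment, adjusted p = 0.00764), with an adjusted p of 0.166 when only these 6 libraries were fitted. Which exons are floxed is not given, so the summed reads of the gene cannot tell whether it was removed. The gene also shares 316 exonic bases with 4930538E20Rik, and reads from the remaining exons of a deleted gene, or from undeleted cells, would be counted here. Bcl11b, the paralog that is intact in these animals, stood at 191, 328 and 149 CPM in controls and at 385, 257 and 227 in Bcl11a-CKO. Its libraries overlapped between the groups, and its log2 fold change of 0.38 ± 0.23 did not pass the test (edgeR adjusted p = 0.455).

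Across all 14947 genes tested, more genes rose than fell in Bcl11a-CKO: 257 rose, or 1.72%, and 130 fell, or 0.870%. Together these are 387 genes past the test, or 2.59% (edgeR adjusted p at most 0.05). For 385 of the 387 the libraries of the groups did not overlap, as was so for 2693 genes, or 18%, of all those tested. Of the risers 86 had a fitted rise of at least 2-fold and of the fallers 35 a fall of at least 2-fold. With the genes left out that had at most 3 counts in the 3 libraries of either group, these were 76 and 34. The test drew its estimate of the spread from all embryonic groups, and the number of calls depended on that: with only the 6 libraries compared, 47 genes were called, of which 46 were among the 387. All 375 of the 387 genes that could be tested there had the same sign. That fit used the same counts of the same libraries, so the sign was all but fixed and adds no support. Leaving out control 2 gave 205 calls and leaving out control 3 gave 184. Calls that held whichever single library was left out numbered 137, of which 99 rose and 38 fell. The plot of all genes shows the calls spread over the whole range of expression, with a larger number above 0 than below.

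**Figure D1:**
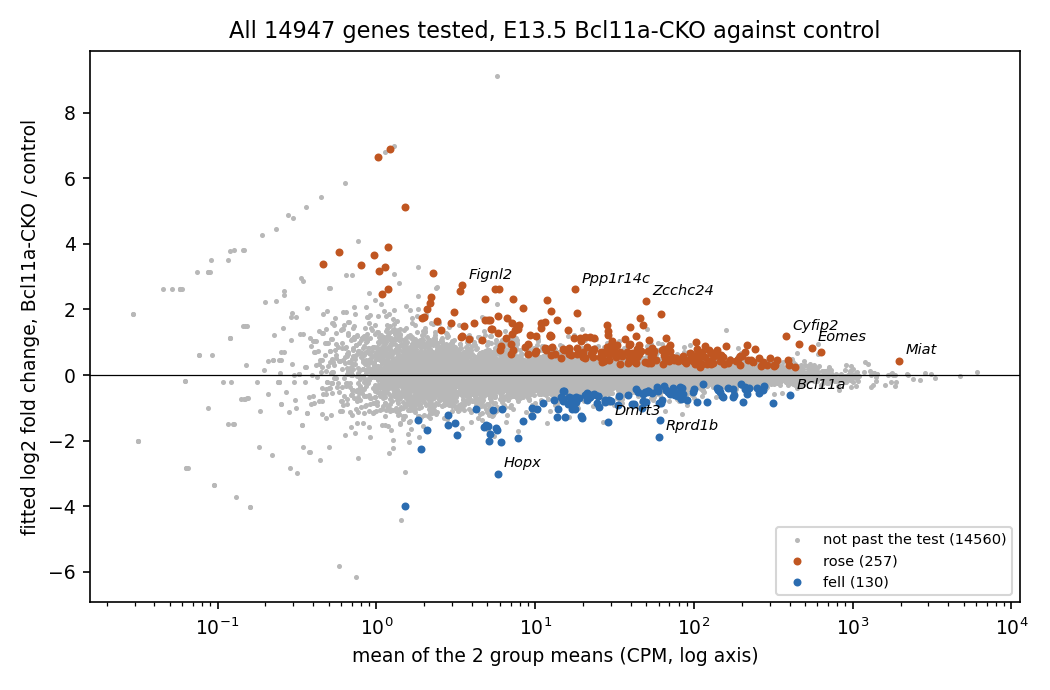
Each point is 1 of 14947 genes, placed by the mean of the control and Bcl11a-CKO group means (CPM, log axis) and by the fitted log2 fold change of Bcl11a-CKO over control at E13.5. Orange points are the 257 genes that rose, blue points the 130 that fell, grey points the genes not past the test. Fitted folds at the far left rest on a few counts. Most changes are moderate, and Bcl11a itself sits at -0.61.

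Several of the largest changes seen in every mutant library were rises from a low control level. Zcchc24, a zinc-finger gene, stood at 20.6, 14.2 and 17.2 CPM in controls and at 78.1, 82.0 and 86.8 in Bcl11a-CKO, a log2 fold change of 2.25 ± 0.19 (edgeR adjusted p = 6.16e-05). Ppp1r14c, an inhibitor of protein phosphatase 1, stood at 5.06, 5.10 and 4.72 CPM in controls and at 41.0, 29.3 and 21.9 in Bcl11a-CKO, a log2 fold change of 2.63 ± 0.24. Both were far above every control in every mutant library, and each was called under all 17 alternative analyses. Ppp1r14c shares 765 exonic bases with the non-coding gene Gm26752, which also rose, and without strand information the reads of the pair cannot be told apart. Cyfip2, a subunit of the WAVE complex that controls actin, rose as well: 250, 238 and 204 CPM in controls, 577, 504 and 497 in Bcl11a-CKO, log2 fold change 1.19 ± 0.08 (edgeR adjusted p = 1.65e-05). Its neighbour Fndc9, which lies within the Cyfip2 locus but shares no exonic bases with it, rose as well, by 1.66 ± 0.28.

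Further large rises were in Fignl2, a relative of microtubule-severing enzymes (2.73 ± 0.26), the adhesion receptor Adgra1 (2.63 ± 0.26), the sulfotransferase-domain gene Wscd2 (2.29 ± 0.22), the collagen gene Col22a1 (2.05 ± 0.21), the zinc-finger factor Zbtb46 (1.90 ± 0.18) and Fgfbp3, which binds fibroblast growth factors (1.85 ± 0.18). All 6 were called under every alternative. Fgfbp3 lay at 38.4, 20.4 and 21.9 CPM in controls and 91.4, 95.9 and 104 in Bcl11a-CKO. Among all genes 39 were called under every alternative, 30 that rose and 9 that fell. The 9 that fell were Ngfrap1, Ltbp4, Epb41l3, 2900026A02Rik, 9430041J12Rik, Dmrt3, Eya1, Tuba4a and Mcam.

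BCL11A is known to bind the motif TGACCA through its zinc fingers. Searched on both strands, as TGACCA or TGGTCA, in the 250 bases before the RefSeq start (GRCm38.p6 promoter table), the motif was present for 1183 of 10494 tested genes with a promoter sequence, or 11.3%. It was present for 27 of 191 risers, or 14.1%, and for 5 of 100 fallers, or 5.00%. Of the 39 genes called under every alternative 29 had a promoter sequence and 10 had the motif. Of these 10, 9 rose, beside 30 risers among the 39. In the 1 that fell, 2900026A02Rik, the motif begins 242 bases before the start. A match is only a run of letters and not a bound site. The promoters of 3 of the 9 risers are printed 5′ to 3′ on the gene's strand, with the motif in capitals. They show where it lies in genes that rose in every mutant library. They span chr10:3365900-3366149 for Ppp1r14c (plus strand), chr15:101054400-101054649 for Fignl2 (minus strand) and chr7:51621580-51621829 for Slc17a6 (plus strand).
Ppp1r14c: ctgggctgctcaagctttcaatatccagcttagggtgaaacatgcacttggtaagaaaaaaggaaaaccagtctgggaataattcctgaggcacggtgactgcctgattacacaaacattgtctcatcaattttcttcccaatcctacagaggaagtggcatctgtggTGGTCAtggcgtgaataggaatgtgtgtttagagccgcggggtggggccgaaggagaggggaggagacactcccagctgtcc
Fignl2: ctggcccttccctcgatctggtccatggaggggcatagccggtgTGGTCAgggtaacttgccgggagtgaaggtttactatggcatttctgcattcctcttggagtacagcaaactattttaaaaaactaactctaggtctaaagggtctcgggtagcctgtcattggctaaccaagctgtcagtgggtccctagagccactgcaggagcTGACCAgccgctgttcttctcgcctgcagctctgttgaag
Slc17a6: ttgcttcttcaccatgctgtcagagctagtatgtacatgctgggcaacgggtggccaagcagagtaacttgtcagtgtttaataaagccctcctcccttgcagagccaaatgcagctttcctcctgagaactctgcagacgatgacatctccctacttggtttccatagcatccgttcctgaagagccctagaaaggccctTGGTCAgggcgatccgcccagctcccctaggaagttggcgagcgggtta
The motif begins 82 bases before the start of Ppp1r14c, 206 and 40 bases before that of Fignl2, and 49 bases before that of Slc17a6.

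Fewer genes fell. Dmrt3, a transcription factor of the medial and caudal cortical progenitors, stood at 43.1, 36.3 and 47.0 CPM in controls and at 11.6, 19.3 and 16.1 in Bcl11a-CKO, a log2 fold change of -1.42 ± 0.20 (edgeR adjusted p = 0.00156). Eya1, a phosphatase and transcriptional cofactor, went from 11.5, 13.4 and 11.5 CPM to 5.25, 3.94 and 4.75, or -1.39 ± 0.19. Tuba4a, an alpha-tubulin gene, went from 27.9, 32.3 and 24.6 CPM to 13, 8.83 and 12.4, or -1.32 ± 0.22. In all 3 the mutant libraries lay well below the lowest control. Tuba4a shares 1379 exonic bases with Stk16. The RNA polymerase II regulator Rprd1b had a steady difference between these groups, 99.3, 89.7 and 96.3 CPM against 23.8, 27.4 and 26.1 (-1.88 ± 0.36), but elsewhere its level did not follow the genotype. It stood at 85.2 to 90.9 CPM in the E13.5 Bcl11a/b-DCKO libraries, which carry the same floxed Bcl11a alleles. In the 3 Bcl11a/b-DCKO libraries of E15.5 it stood at 62.7, 16.4 and 18.2 CPM. Rprd1b shares 370 exonic bases with Tgm2.

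**Figure D2:**
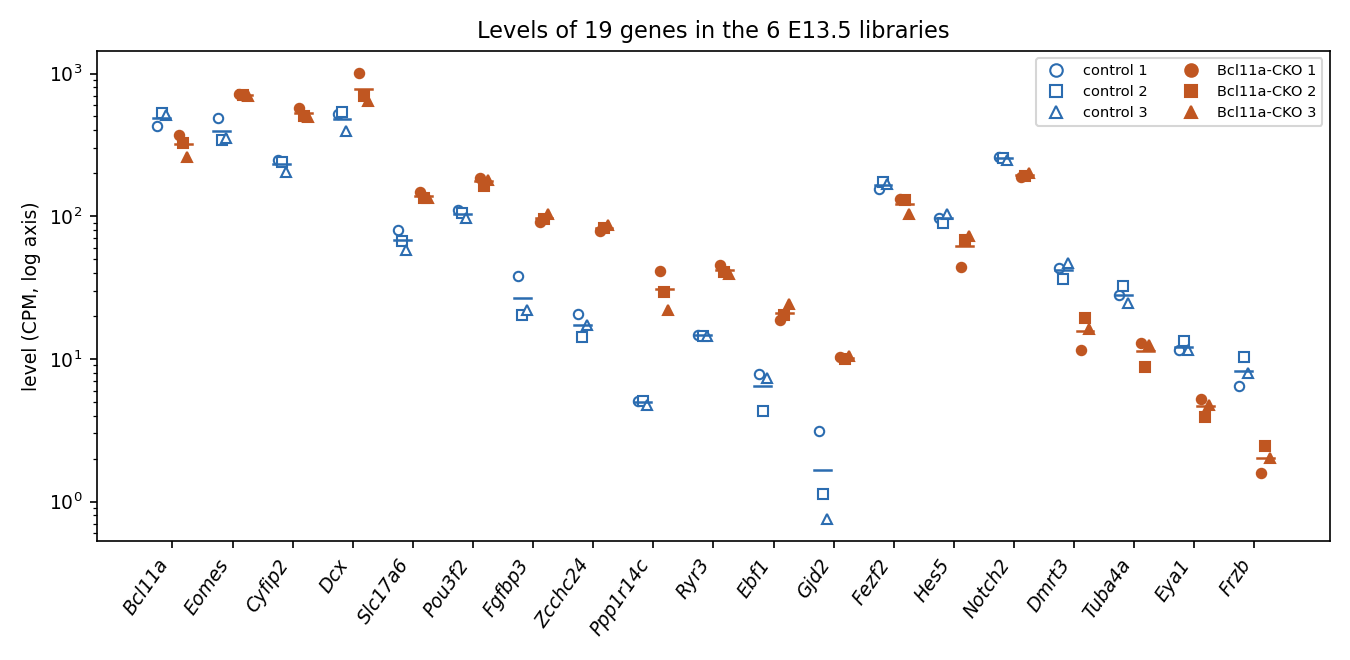
The level of 19 genes (CPM, log axis) in each of the 6 E13.5 libraries. Open blue symbols are controls 1 to 3, filled orange symbols Bcl11a-CKO 1 to 3, and short lines the group means. The groups of each gene do not overlap. Bcl11a-CKO 1 is the farthest from the controls for Eomes, Cyfip2, Dcx, Slc17a6, Pou3f2, Ppp1r14c, Ryr3, Hes5, Notch2, Dmrt3 and Frzb. For Eomes, Pou3f2 and Notch2 the margin over the other mutant libraries is small. In the remaining genes another mutant library is the farthest.

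Among progenitor genes, several intermediate progenitor genes rose. Of 15 listed and tested, 4 rose, none fell, 13 had a positive log2 fold change, and the median was 0.23. Over all genes tested 1.72% rose, 0.870% fell, 49.7% had a positive log2 fold change, and the median was -0.00119, and the counts of the lists that follow stand against these shares. Eomes (Tbr2), the defining transcription factor of these cells (chr9:118478212-118486132), stood at 491, 343 and 355 CPM in controls and at 719, 706 and 694 in Bcl11a-CKO. Every mutant library was above every control and the mutant libraries were nearly equal, with a log2 fold change of 0.83 ± 0.11 (edgeR adjusted p = 0.00132). It was called whichever library was left out, as was the RNA-binding protein gene Elavl4 (0.46 ± 0.08). The other 2 were the somatostatin receptor Sstr2 (0.66 ± 0.15), and Dll3, a Notch ligand that inhibits Notch within the same cell (0.77 ± 0.16). Neither held in every fit: without control 3 the adjusted p was 0.153 for Sstr2 and 0.105 for Dll3. Neurog2, the proneural factor at the start of the lineage, stood at 395 to 431 CPM in controls and 412 to 447 in Bcl11a-CKO and did not pass the test. Insm1, which promotes the formation of these cells, had a log2 fold change of 0.33 ± 0.08 and an adjusted p of 0.052. The number of list members called was 2 without control 2, 2 without control 3, 3 without Bcl11a-CKO 1, 2 without Bcl11a-CKO 2 and 0 in the fit of only the 6 libraries.

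Some targets of Notch, which keep radial glia in the progenitor state, fell. Of 6 tested, 3 fell, none rose, and the median log2 fold change was -0.48. Hes5, the main Notch effector of cortical progenitors, stood at 97.4, 90.1 and 103 CPM in controls and at 44.1, 68.4 and 72.1 in Bcl11a-CKO (-0.65 ± 0.16, edgeR adjusted p = 0.0444). Hey1 stood at 125, 109 and 117 CPM and at 68.8, 90.2 and 85.3 (-0.53 ± 0.12), and Hey2 fell by 1.80 ± 0.44 from a lower level. The groups did not overlap for any of the 3, but the lowest Hes5 and Hey1 values were in Bcl11a-CKO 1, and these calls were close to the threshold. Without Bcl11a-CKO 1 no list member was called, with adjusted p-values of 0.0769 for Hes5, 0.101 for Hey1 and 0.121 for Hey2, and none was called without control 2 or without control 3. Hes5 shares 433 exonic bases with Gm20421, which fell too. Hes1 had 51.9 to 65.6 CPM in controls and 30.3 to 51.6 in Bcl11a-CKO and did not pass the test. Of 14 Notch receptors and modifiers 1 fell: Notch2 stood at 261, 255 and 247 CPM in controls and at 188, 191 and 199 in Bcl11a-CKO (-0.40 ± 0.07, edgeR adjusted p = 0.00533). Those values were tight in both groups, and the call held whichever library was left out. Notch1, the other main receptor, had a log2 fold change of 0.05 ± 0.08. Of the 6 ligands, Dll3 was the only one past the test, and Dll1 had -0.23 ± 0.11.

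Radial glia genes as a group showed little net change: 2 of 19 fell, none rose, and the median was -0.04. Pax6 stood at 172 to 210 CPM in controls and 185 to 240 in Bcl11a-CKO, and Sox2 at 174 to 205 and 131 to 193. The 2 that fell were Aldoc, a glycolytic enzyme of radial glia and astrocytes (-0.81 ± 0.15), and Hopx, which marks medial and later outer radial glia. Hopx stood at 7.01, 16.1 and 7.74 CPM in controls and at 0.876, 0.543 and 2.56 in Bcl11a-CKO, a log2 fold change of -3.01 ± 0.59 (edgeR adjusted p = 0.0147), and shares 412 exonic bases with Hopxos. Without control 2, which had the highest value of both, neither was called (adjusted p-values of 0.0664 for Hopx and 0.0523 for Aldoc). Hopx was called in 3 of the 6 fits with 1 library left out and Aldoc in 5.

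No cell cycle gene of the S phase list (16 tested) or of the G2 and mitosis list (18 tested) passed the test. Most leaned downward, with 14 of 16 and 16 of 18 negative and medians of -0.24 and -0.14. The summed level of the S phase list was 1902 CPM in Bcl11a-CKO 1, against 2807 to 3277 in controls and up to 2986 in the other mutant libraries, and that library alone lay below the controls. Of 15 regulators of G1 and cell cycle exit 1 fell, Cdk6, a kinase that drives cells into S phase: 93.7, 117 and 130 CPM in controls and 58.1, 56.6 and 85.3 in Bcl11a-CKO (-0.77 ± 0.16). The exit factor Cdkn1c stood at 94.8 to 146 CPM in controls and 148 to 167 in Bcl11a-CKO and did not pass the test (0.43 ± 0.14, edgeR adjusted p = 0.127). Of 15 proneural factors and targets, 2 rose, Neurod4 (1.36 ± 0.32) and Nhlh2 (0.55 ± 0.14), both of newly committed neurons. The adhesion regulator Rnd1 fell, from 8.38, 14.7 and 14 CPM to 5.08, 2.31 and 2.56 (-1.91 ± 0.29). Rnd1 held in every fit with 1 library left out. Neurod4 and Nhlh2 were each called in only 1 of those 6 fits, without control 1, and Cdk6 in 2, without control 1 and without Bcl11a-CKO 3.

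Some genes of newborn and migrating neurons rose. Of 19 tested, 5 rose, none fell, 14 had a positive log2 fold change, and the median was 0.31. Sema3c, a secreted guidance cue of cortical neurons, stood at 21.8, 21.0 and 20.2 CPM in controls and at 82.8, 51.6 and 40.2 in Bcl11a-CKO, a log2 fold change of 1.47 ± 0.23 (edgeR adjusted p = 0.00384). Plxna4, a receptor for secreted semaphorins, stood at 299, 340 and 301 CPM and at 860, 506 and 464 (0.96 ± 0.19). Dcx, the microtubule protein of migrating neurons, stood at 517, 536 and 393 CPM and at 1010, 694 and 642 (0.70 ± 0.15, edgeR adjusted p = 0.0246). In all 3 the mutant libraries were above every control and Bcl11a-CKO 1 was the highest. Unc5d, a netrin receptor of multipolar migrating cells (1.06 ± 0.24), and the adhesion molecule Nrcam (0.61 ± 0.13) completed the 5. The summed level of the list was 10985 CPM in Bcl11a-CKO 1, 7223 to 8020 in the other mutant libraries and 6248 to 7821 in controls. Without Bcl11a-CKO 1, 2 list members rose (Sema3c and Plxna4) and 1 fell. Without control 3, the lowest library for this list, only Sema3c rose. In whole tissue, a change in the number of such cells and in the RNA per cell cannot be told apart.

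**Figure D3:**
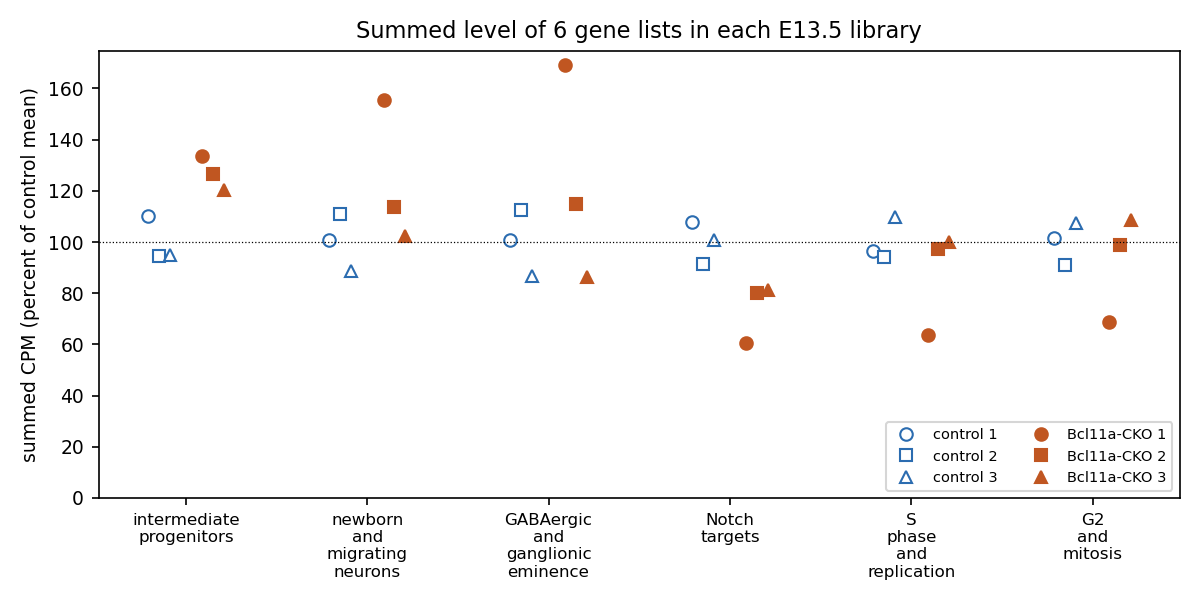
The summed CPM of the tested members of 6 gene lists in each E13.5 library, as a percent of the mean of the 3 controls. Open blue symbols are controls and filled orange symbols Bcl11a-CKO libraries. The intermediate progenitor sums of all 3 mutant libraries (120.5 to 133.5) lie above the controls, while for neurons, GABAergic genes and the cell cycle only Bcl11a-CKO 1 stands clearly outside the control range.

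Some other guidance and adhesion genes rose too. Of 26 semaphorins and plexins Sema3c and Plxna4 were the 2 that rose, and the receptor Nrp1 had -0.74 ± 0.19 without passing (edgeR adjusted p = 0.0527). Of 19 ephrins and Eph receptors Epha3 rose (153, 173 and 151 CPM in controls, 302, 210 and 209 in Bcl11a-CKO, 0.60 ± 0.13), as did Efna3 (0.55 ± 0.13). Of 18 genes of the netrin and Slit systems Unc5d alone rose, and Robo2 had 0.59 ± 0.16 with an adjusted p of 0.0786. Of 22 cadherins and protocadherins 4 rose, none fell, 19 were positive, and the median was 0.33. Cdh4 (R-cadherin) stood at 79.9, 75.9 and 74.4 CPM in controls and at 148, 148 and 104 in Bcl11a-CKO (0.80 ± 0.11, edgeR adjusted p = 0.0019), and was called whichever library was left out. Pcdh10, Cdh6 and Cdh22 rose by 0.65, 0.62 and 1.19 and lost their calls without control 3. N-cadherin (Cdh2), which holds progenitors at the ventricular surface, had 0.07 ± 0.06.

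Genes that mark the classes of projection neuron did not move as a block. Slc17a6 (Vglut2), a vesicular glutamate transporter of early neurons, stood at 80.5, 66.7 and 58.4 CPM in controls and at 149, 133 and 135 in Bcl11a-CKO, a log2 fold change of 1.02 ± 0.11 (edgeR adjusted p = 0.000425). The groups were well apart, the call held under all 17 alternatives, and it was the only one of 13 glutamatergic genes past the test. Slc17a7 (Vglut1) had -0.20 ± 0.15. Of 10 layer 6 genes Zfpm2 (Fog2), of corticothalamic neurons, fell (29.2, 43.6 and 33.1 CPM against 17.7, 19.8 and 22.3, -0.83 ± 0.17), while Tbr1 had 0.15 ± 0.13 and Sox5 -0.21 ± 0.20. Of 9 layer 5 genes Fezf2, the selector of subcerebral neurons, fell (156, 174 and 168 CPM against 133, 131 and 104, -0.44 ± 0.10, edgeR adjusted p = 0.0357). Without control 2 neither was called (adjusted p-values of 0.091 and 0.118), and of the 6 fits with 1 library left out Zfpm2 was called in 2 and Fezf2 in 3. The layer 6 list had 3 positive and 7 negative log2 fold changes, with a median of -0.18. In the layer 5 list 6 were positive and 3 negative, with a median of 0.21.

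Upper-layer genes split. Of 17 tested, Pou3f2 (Brn2), a POU factor of upper-layer neurons and their progenitors, rose from 110, 106 and 96.7 CPM to 184, 162 and 180 (0.75 ± 0.10, edgeR adjusted p = 0.000935), and it held under every alternative. Unc5d rose too, while the lipoprotein lipase gene Lpl fell from 29.6, 42.1 and 28.5 CPM to 19.8, 15.6 and 16.1 (-0.96 ± 0.16). Of 6 subplate genes Tmem163 rose (0.84 ± 0.16). Among 11 Cajal-Retzius genes Reln, the extracellular protein these cells secrete to guide migration, fell from 219, 302 and 255 CPM to 176, 188 and 156 (-0.58 ± 0.13, edgeR adjusted p = 0.0262), and Nhlh2 rose. The defining Cajal-Retzius factor Trp73 had -0.25 ± 0.19 and Lhx5 -0.85 ± 0.27, neither past the test. The largest log2 fold change of the list was a positive one, 1.21 ± 0.31 for Ndnf, which did not pass either (edgeR adjusted p = 0.0575). Of the 11 genes 5 were positive and 6 negative, with a median of -0.08. Reln was called in 2 of the 6 fits with 1 library left out, with an adjusted p of 0.103 without control 2. Dab1, the intracellular adaptor of the reelin receptors, fell from 169, 186 and 164 CPM to 135, 123 and 106 (-0.51 ± 0.09), a gene outside the lists that was named because its level also differed in the double mutant.

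**Figure D4:**
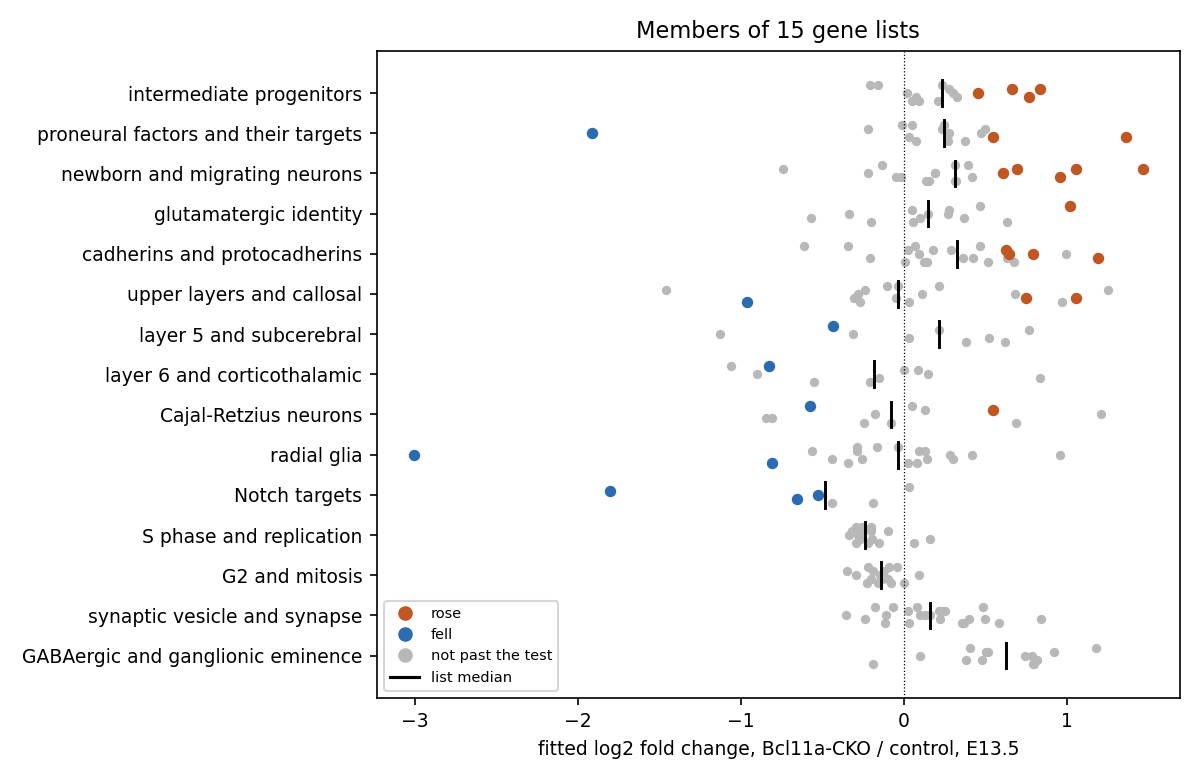
Fitted log2 fold change (Bcl11a-CKO over control, E13.5) of each tested member of 15 gene lists, 1 point per gene. Orange members rose, blue members fell, grey members did not pass the test, and black bars are list medians. The intermediate progenitor, neuron and cadherin lists have calls only above 0, the Notch target and radial glia lists only below 0, and the cell cycle lists have none.

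Of 17 patterning genes of the cortical sheet Dmrt3 was the only one past the test. Emx2, of caudal and medial progenitors, had -0.56 ± 0.21, Sp8 -0.74 ± 0.31 and Nr2f1 (Coup-tf1) 0.49 ± 0.14, none past the test. Of 22 Wnt receptors, inhibitors and targets, the secreted inhibitor Frzb fell from 6.43, 10.4 and 7.93 CPM to 1.58, 2.44 and 2.01 (-2.01 ± 0.34, edgeR adjusted p = 0.00633), the receptor Fzd9 fell (-0.75 ± 0.18), and the feedback inhibitor Nkd1 rose (0.62 ± 0.14). Frzb held with any 1 library left out, whereas Fzd9 was called in 1 of those 6 fits and Nkd1 in 3. Axin2, the usual readout of the canonical pathway, had -0.32 ± 0.11 and none of 5 Wnt ligands passed the test.

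Of 29 voltage-gated channel genes 3 rose and 1 fell, against 2.59% called among all genes. The list as a whole was balanced, with 14 positive and 15 negative log2 fold changes and a median of -0.05. Scn3a, the main sodium channel subunit of embryonic neurons, stood at 22.6, 24.7 and 22.9 CPM in controls and at 67.8, 42.4 and 40.0 in Bcl11a-CKO (1.09 ± 0.20, edgeR adjusted p = 0.00831). Scn1a (1.60 ± 0.31) and the potassium channel Kcnc1 (0.74 ± 0.15) also rose, and the T-type calcium channel Cacna1g fell (-0.87 ± 0.19). Cacna1g was called in 2 of the 6 fits with 1 library left out, and had an edgeR adjusted p of 0.169 with only the 6 libraries. Gjd2, the neuronal gap junction protein connexin of nerve cells, rose from 3.12, 1.13 and 0.756 CPM to 10.3, 9.91 and 10.4 (2.61 ± 0.32). Its 3 mutant libraries were almost equal, and 1 of 7 gap junction genes was thus past the test. Ryr3, a calcium release channel of internal stores, stood at 14.8, 14.5 and 14.5 CPM in controls and at 45.5, 40.9 and 39.6 in Bcl11a-CKO (1.52 ± 0.14, edgeR adjusted p = 9.73e-05). It shares 916 exonic bases with Aven. No gene of 23 for synaptic vesicles and synapses passed the test.

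Few markers of other cell types passed the test. None of 14 GABAergic and ganglionic eminence genes passed the test, but 13 were positive, and the median of 0.63 was the highest of the 40 lists with a tested member. Their summed level was 364 CPM in Bcl11a-CKO 1, against 186 to 242 in controls and 185 to 247 in the other mutant libraries, so that library also had the most RNA of such neurons, and the part this plays in the neuronal results was not tested. Ebf1, a striatal factor also found in Cajal-Retzius cells, rose from 7.79, 4.34 and 7.37 CPM to 18.7, 20.2 and 24.1 (1.69 ± 0.25, edgeR adjusted p = 0.00254), the 1 of 8 striatal genes that did. Of the other 7 tested, 3 had positive and 4 negative log2 fold changes, from -0.72 for Penk to 0.67 for Drd1. Isl1 and Tac1 were too low to test, with at most 2 and 3 counts in any of the 6 libraries, and the part of striatal cells in the rise of Ebf1 was not tested. Among 11 astrocyte genes Aldh1l1 rose from 0.584, 0.378 and 0.378 CPM to 7.53, 2.85 and 1.83 (3.12 ± 0.69), and Fgfr3 (-0.67 ± 0.13) and Aldoc fell. The control values of Aldh1l1 are 2 to 3 counts, and Bcl11a-CKO 1 held 43 of its mutant counts against 21 and 10 in the others. It was called in 2 of the 6 fits with 1 library left out (adjusted p = 0.0652 without Bcl11a-CKO 1, edgeR). At E15.5 Aldh1l1 rose too, from 4.80 and 7.96 CPM to 47.5 and 38.0 (2.69 ± 0.41, edgeR adjusted p = 0.00393). The gene shares 499 exonic bases with Gm15756. No gene of the microglia (11), endothelium (11), meninges (8), erythroid (9) or immediate early (8) lists passed the test, nor any of 26 known chromatin partners of Bcl11 proteins. Of 18 p53 and apoptosis genes Hrk, an activator of cell death, fell (7.99, 8.50 and 9.26 CPM against 3.15, 2.04 and 3.29, -1.62 ± 0.28).

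The same genotypes at E15.5, with their own controls, showed most of the E13.5 changes in the same direction. There 289 genes, or 1.93%, passed the test, on 2 control and 2 Bcl11a-CKO units after libraries sharing a title number were summed. Of the 257 genes that rose at E13.5, 219 had a positive log2 fold change at E15.5, or 85.2%, against 46.9% of all genes tested. Of the 130 that fell, 113 were negative, or 86.9%, against 53% of all genes. Their median log2 fold changes at E15.5 were 0.39 and -0.35, and -0.02 for all genes. Past the test at both ages were 62 risers and 26 fallers, and 1 gene, Rian, in opposite directions. These 89 are 23% of the E13.5 calls and 30.8% of the E15.5 calls. Zcchc24 was at 9.81 and 7.26 CPM in E15.5 controls and at 52.5 and 53.8 in Bcl11a-CKO, Zbtb46 had a log2 fold change of 2.85 and Fignl2 of 3.69, and Dmrt3 fell again, by 2.73. Eomes rose at both ages, with 229 and 221 CPM in E15.5 controls and 346 and 331 in Bcl11a-CKO (0.59 ± 0.14). Dcx, Plxna4, Hes5 and Hey1 did not pass the test at E15.5, with 0.22, 0.72, -0.59 and -0.30. For none of those 4 did the difference between the ages pass its own test.

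That test of the difference between the ages was passed by 12 genes, or 0.0803%, of which 5 had been called at E13.5. Ryr3 was higher in the mutant at E13.5 and not at E15.5, where it stood at 137 and 131 CPM in controls and at 116 and 103 in Bcl11a-CKO, a difference of -1.82 ± 0.21 on the log2 scale (edgeR adjusted p = 0.00321). In E15.5 controls Ryr3 was thus far above its E13.5 level in either group. Eya1 fell at E13.5 and at E15.5 had 5.2 and 8.2 CPM in controls and 9.73 and 7.71 in Bcl11a-CKO. The count of 12 was 2 to 19 when single libraries or units were left out, and it was 2 without the first E15.5 Bcl11a-CKO unit.

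**Figure D5:**
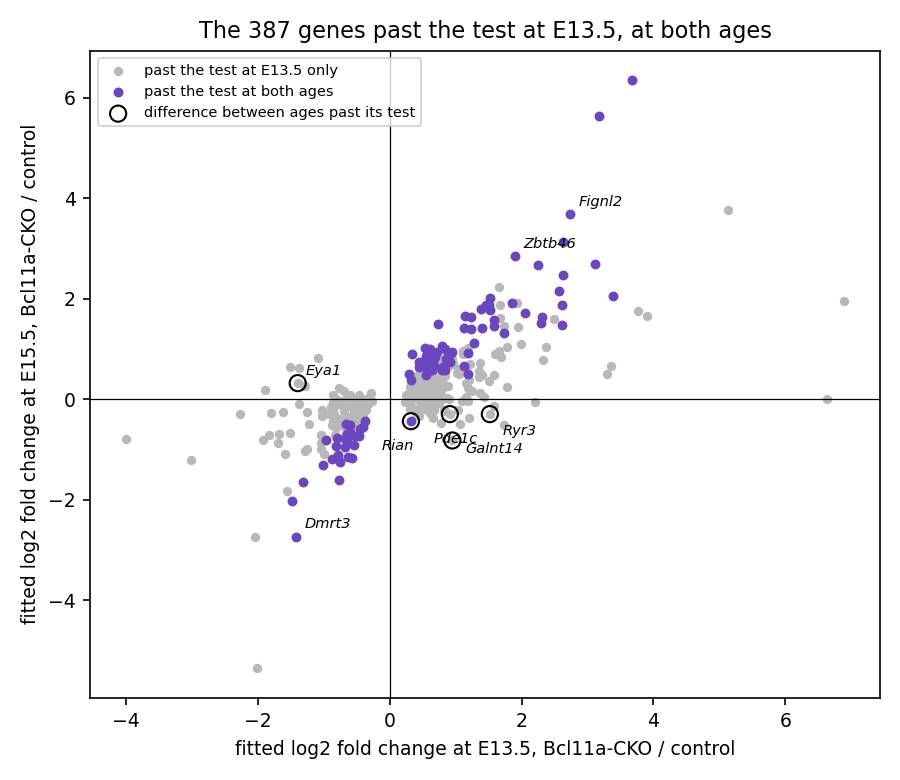
The 387 genes past the test at E13.5, by their fitted log2 fold change at E13.5 (horizontal) and at E15.5 (vertical). Purple points passed the test at both ages, and black rings mark the 5 genes whose difference between the ages passed its own test. Most points lie in the lower left and upper right, 332 of 387 with the same sign.

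Most of the genes called in Bcl11a-CKO did not pass a test for a difference between the single and the double mutant, which does not show that they were alike. Compared directly with Bcl11a-CKO, without using the controls, the E13.5 Bcl11a/b-DCKO libraries differed in 109 genes, or 0.729%, of which 28 were among the 387. In 23 of those 28 the double mutant went further in the same direction. Fignl2 rose from 5.48 to 6.66 CPM in Bcl11a-CKO to 21.4, 21.9 and 23.3 in Bcl11a/b-DCKO (1.87 higher on the log2 scale, edgeR adjusted p = 0.000117), with controls at 0.378 to 1.36. Wscd2 (1.54), Gamt, a creatine synthesis enzyme (1.13), and Metrn, a secreted factor of neural progenitors (1.03), also went further up, and the cannabinoid receptor Cnr1 (-1.19) and Dab1 (-0.54) further down. Mgat1, a glycosyltransferase that fell in Bcl11a-CKO, was higher in the double mutant by 1.35, as was Rprd1b by 1.77. Mgat1 stood at 26.3, 34.6 and 21.5 CPM in controls, 11.2, 11.0 and 12.6 in Bcl11a-CKO and 33.0, 24.2 and 31.4 in the double mutant. The double mutant, with the same floxed Bcl11a alleles, thus lay near the controls for both genes. Its log2 fold changes over controls were 0.10 for Mgat1 and -0.11 for Rprd1b (edgeR adjusted p = 0.833 and 0.914). For Eomes, Slc17a6, Pou3f2, Dmrt3 and Ebf1 the difference between the mutants did not pass the test, with values of 0.21, 0.27, -0.04, 0.05 and 0.47. Leaving out single libraries gave 37 to 209 genes, the fewest without Bcl11a/b-DCKO 2 and the most without Bcl11a-CKO 3.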

How the data were processed

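RNA sequencing libraries of mouse cortex were aligned with HISAT2 2.0.4 to mm10 and processed with StringTie 1.3.0 and edgeR, per the submitters' processing notes. The deposited values used here are raw read counts per gene, and the strand setting of the counting is not given in the sources used here. Coordinates of genes are those of the deposited table.

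One edgeR 4.0.16 quasi-likelihood model (R 4.3.3, TMM scaling, filterByExpr) was fitted to 16 units of the 6 embryonic groups, with E15.5 libraries sharing a title number summed. Genes with a Benjamini-Hochberg adjusted p of at most 0.05 were called. SE is the log2 fold change divided by the square root of its F statistic. The script was tested on simulated data. Alternatives included DESeq2 1.42.0, other scalings and filters, fewer libraries and each library left out. The members, gene lists and tests were chosen with earlier results of these data known. Genes named are list members, the targeted gene, the largest and most abundant changes among genes whose libraries do not overlap between groups and whose higher group averages 5 CPM or more, and genes that differed between ages or mutants. Genes outside that rule were named after their values were seen.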

Additional observations from a re-analysis of the deposited data

Results flagged for a closer look

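For 5 genes called at E13.5 the Bcl11a-CKO effect differed between the ages by the test of the difference itself (E15.5 minus E13.5, log2 scale, edgeR adjusted p). Ryr3 differed by -1.82 ± 0.21 (adjusted p = 0.00321) and Eya1 by 1.71 ± 0.29 (adjusted p = 0.05). Galnt14, a glycosyltransferase, stood at 7.01, 5.10 and 6.42 CPM in E13.5 controls and at 11.6, 12.1 and 12.2 in Bcl11a-CKO. At E15.5 it stood at 5.80 and 6.09 CPM in controls and at 3.80 and 3.11 in Bcl11a-CKO, so the order of the groups was turned, with a difference of -1.77 ± 0.25 (adjusted p = 0.0122). The imprinted non-coding RNA Rian was turned in the same way, with 101, 101 and 97.3 CPM against 117, 125 and 133 at E13.5 and 181 and 195 against 142 and 136 at E15.5, a difference of -0.76 ± 0.10 (adjusted p = 0.0119). The phosphodiesterase gene Pde1c was higher in all 3 mutant libraries at E13.5 (47.9 to 55.2 CPM, against 26.6 to 27.5) and at E15.5 stood at 29.6 and 21.3 CPM in controls and 21.1 and 20.03 in Bcl11a-CKO, a difference of -1.21 ± 0.20 (adjusted p = 0.0359).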

How the results depend on the processing

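The 387 calls at E13.5 became 47 with only the 6 libraries compared, 176 with the 9 E13.5 libraries, 162 without control 2 and Bcl11a-CKO 1 together and 127 against a minimum fold of 1.2, and ranged from 184 to 484 with 1 library left out. Of 92 named genes that were called, none changed sign under any of the 17 alternatives. The alternatives reuse the same counts, and the groups do not overlap for 385 of the 387 calls, so a change of sign was hardly possible. The smallest number kept was 22 of 90, with only the 6 libraries, and DESeq2 kept all 92. Bcl11a had a log2 fold change of -0.61 with 6 libraries, with 9 and against the minimum fold, with adjusted p-values of 0.166, 0.0572 and 0.0638. It ranged from -0.73 to -0.48 with 1 library left out, past the test each time. The 12 genes that differed between ages ranged from 2 to 19 with 1 library or unit left out, of which the E15.5 units (4, 2 and 5 genes) were left out as an addition chosen after seeing the data. The 109 that differed between the mutants ranged from 37 to 209. No paired analysis was possible because the E13.5 labels carry no replicate numbers, only a title ending that sets library 1 of each group apart, and with that ending as a term 474 genes were called. With 3 libraries a group and 5022955 to 7220708 counts, genes of a few counts give imprecise folds.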

Other observations

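Some further genes past the edgeR test form groups that were put together after their values were seen. Components of TGF-beta and BMP signalling moved in both directions. The activin and BMP antagonist Fst rose from 3.31, 2.27 and 3.21 CPM to 8.06, 7.60 and 7.49 (1.39 ± 0.19), and the receptor Bmpr1b rose (0.77 ± 0.16). Ltbp4, which holds latent TGF-beta in the matrix, fell from 100, 98.8 and 111 CPM to 58.7, 69.0 and 58.6 (-0.73 ± 0.08), and the inhibitor Ski fell (-0.44 ± 0.08), as did the ligand Tgfb2 (-1.04 ± 0.25). Fst, Ltbp4 and Ski were called whichever library was left out, and Tgfb2 in 1 of those 6 fits. The nicotinic receptor subunit Chrna4 rose from 0.567 to 1.17 CPM in controls to 2.92 to 3.39 in Bcl11a-CKO (1.78 ± 0.27). Its relatives Chrna3 and Chrnb4, which lie next to each other, rose by 1.67 and 1.65 but were called in 1 and 0 of the fits with 1 library left out. The chemokine Cxcl12 (0.77 ± 0.17) and its receptor Ackr3 (0.85 ± 0.19) both rose, called in 1 and 2 of those fits.

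Th, which encodes the enzyme that limits dopamine synthesis, had 0 counts in the 3 E13.5 controls and 11, 16 and 11 in Bcl11a-CKO, at least 10.7-fold higher against a floor of 3 counts over the control group. Chil1, a chitinase-like secreted protein, had 0 counts in controls and 20, 16 and 9 in Bcl11a-CKO, at least 12.7-fold higher. Th had 0 CPM in all E15.5 control and Bcl11a-CKO units.

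Of 9262 genes reaching 20 CPM, 94 varied over 4-fold between libraries of 1 group. None of the 94 was called, but genes chosen for such a spread can hardly pass a test against it. Of these 53, or 56.4%, shared exonic bases with another counted gene, against 33.7% of the 9262. The ubiquitin gene Ubb stood at 88.2 CPM in control 1 and at 525 and 476 in the other controls, and Zbtb20 at 6.79 CPM in Bcl11a-CKO 2 and at 162 and 122 in the others. The 94 also include Xist, Tsix and the Y-linked genes Ddx3y, Eif2s3y, Kdm5d and Uty, which split by the sex of the tissue. Xist stood at 2643 CPM in control 1 and 3217 in Bcl11a-CKO 3, and at 1.22 to 8.12 in the other libraries. The Y-linked genes had at most 0.195 CPM where Xist was high and at least 20.8 elsewhere. Whether read assignment plays a part in the other genes was not tested.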
